A study of Macaca fascicularis with 7 samples.

Results

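The transcripts of 9 proteins of the meiotic spindle were followed in oocytes of the cynomolgus monkey (Macaca fascicularis). The genes were FAM83D and HMMR, CKAP5 and TACC3, NUMA1 and ASPM, DLGAP5, PRC1 and TUBB8. They were chosen by name, as proteins of the spindle pole, spindle fibres and midzone together with an oocyte tubulin. Earlier results of these data were known when they were chosen. Each was read from the row of the deposited count table that carries its symbol. All 9 had a row among 28161 gene rows, and all 9 were among the 16374 genes that passed the filter on low counts. The study compared 3 groups, all labelled wild type. In vitro matured (IVM) metaphase II (MII) oocytes, labelled as treated, gave 3 libraries. In vivo matured (IVO) MII oocytes, labelled as controls, gave 2 libraries. Immature oocytes held at the germinal vesicle (GV) stage, before the first meiotic division, were also labelled as controls and gave 2 libraries.

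The meiotic spindle of primate oocytes assembles without the centriole-based centrosomes of somatic cells. Its poles are gathered by microtubule-associated proteins, motors and kinases, and its fibres grow from tubulin stored in the cytoplasm. Much of this machinery is made from transcripts laid down while the oocyte grows. A full-grown oocyte transcribes little, so transcript levels during maturation depend largely on stability and on poly(A) tail length.

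Library totals were between 22901970 and 29245733 counts. Reverse transcription started from poly(A) tails, so a transcript whose tail changes length can change in count at the same number of molecules. Fewer cells of a type and less RNA per cell cannot be told apart in such samples. Neither the number of oocytes behind a library nor the animals they came from is given in the labels, so p-values measure only the spread between these libraries, which may be technical. Per the labels, the alignment files of the GV libraries stood in another folder than those of the MII libraries, so folder and group cannot be told apart in a comparison with GV. CPM are counts divided by the library total times its TMM factor, on a common scale. The factors were 0.7662, 0.8893 and 0.9095 in IVM, 0.8336 and 0.9848 in IVO and 1.423 and 1.382 in GV libraries. The larger factors of GV lower its CPM relative to the MII libraries. Marker sums were not compared without the factors. Summed oocyte markers (14 of 15 with a row, none at 0 in all libraries) were at 19190 to 25424 CPM in IVM libraries. They were at 13083 and 19069 CPM in IVO and 10740.4 and 12496 CPM in GV libraries. Cumulus and granulosa markers (17 of 20 with a row, AMH and PTX3 at 0) summed to 363 to 491 CPM in IVM, 225 and 247 CPM in IVO and 101 and 284 CPM in GV libraries. Markers of stroma, theca and endothelium (13 of 14 with a row, COL3A1, LUM and TAGLN at 0) summed to 74.0 to 90.9 CPM in IVM, 92.4 and 128 CPM in IVO and 1094 and 1221 CPM in GV libraries, and VWF alone gave 991 and 1140.1 CPM in GV. Blood markers (9 of 10 with a row, CD79A, LYZ, CD14 and ITGAM at 0) did not pass 1.12 CPM in any library. The part of these marker differences in the results was not tested.

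Of the 9 genes, FAM83D alone was called between the 2 kinds of MII oocyte, and it was 47.2-fold higher in IVM than in IVO oocytes. On the TMM scale, ASPM, HMMR and CKAP5 were called higher in both kinds of MII oocyte than in GV. The larger TMM factors of GV add to such differences. DLGAP5 was called higher and TUBB8 lower in IVM than in GV oocytes, and neither was called between IVO and GV oocytes. FAM83D was called in opposite directions, higher in IVM and lower in IVO oocytes than in GV. The comparisons share libraries, so their results are not independent of each other. A gene was called at a Benjamini-Hochberg adjusted p under 0.05 over all 16374 genes in the quasi-likelihood test of edgeR.

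Against all tested genes, these counts read as follows. They are a description only, because the 9 genes were chosen with earlier results of these data known. In IVM versus IVO oocytes 1 of 9 genes was called higher and 0 lower, while 1.47% of all tested genes were called, 0.892% higher and 0.580% lower. At an unadjusted edgeR p under 0.05, TACC3 and TUBB8 joined FAM83D, and DESeq2 called these 3 genes, while limma voom called 1. With upper quartile scaling, the split over all genes was 127 higher and 125 lower in IVM, against 146 higher and 95 lower with TMM, and the median of all genes moved to -0.11. FAM83D was called alone and higher under both scalings. In IVO versus GV oocytes 3 of 9 were called higher and 1 lower, against 28.1% of all tested genes, 14.6% higher and 13.5% lower. In IVM versus GV oocytes 5 of 9 were called higher and 1 lower, against 36.3% of all tested genes, 18.5% higher and 17.8% lower. The median log2 fold change of the 9 genes was 0.32 for IVM over IVO, 0.47 for IVO over GV and 1.15 for IVM over GV. Over all tested genes it was 0.00, -0.16 and -0.10 in the same comparisons.

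Separation of the libraries, in TMM-scaled CPM, was less selective than the test. The libraries of IVM and IVO oocytes did not overlap for 6 of the 9 genes (5 higher and 1 lower in IVM), and did not overlap for 33.8% of all tested genes. Those of IVO and GV oocytes did not overlap for 6 genes (4 higher and 2 lower in IVO), against 72.8% of all tested genes. Those of IVM and GV oocytes did not overlap for 8 genes (7 higher and 1 lower in IVM), against 69.1%.

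**Figure D1:**
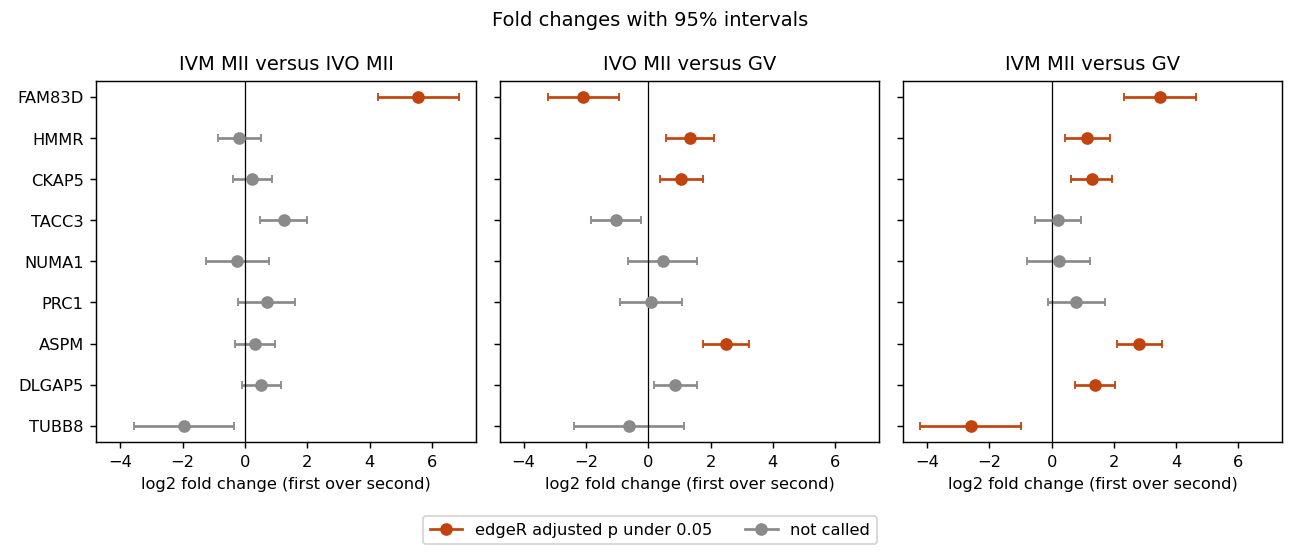
Log2 fold change (x axis) of the 9 genes (y axis) in each of the 3 comparisons, first group over second. The 95% intervals were derived from the F statistic of the edgeR test, and orange points had an edgeR adjusted p under 0.05. FAM83D lies at 5.56 for IVM over IVO, -2.08 for IVO over GV and 3.48 for IVM over GV, while NUMA1 and PRC1 cross 0 in all 3 comparisons.

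Per length of transcript, DLGAP5 was the most abundant of the 9 in every group and NUMA1 the least. Reads across exon junctions may be missing from the counts, and the genes differ in exon blocks (4 in FAM83D, 46 in CKAP5). Levels and ratios between genes are therefore approximate. On the scale of CPM per kilobase of exon, DLGAP5 averaged 864 ± 98.7 in IVM (n = 3), 600 ± 54.5 in IVO (n = 2) and 329 ± 24.3 in GV oocytes (n = 2, SD throughout). That placed it at position 88 in IVM, 124 in IVO and 154 in GV among the 16374 tested genes. NUMA1 averaged 1.39 ± 0.263 in IVM, 1.64 ± 0.751 in IVO and 1.19 ± 0.107 in GV oocytes on the same scale. PRC1 came second in every group, with 142 ± 43.7 CPM per kilobase in IVM, 87.1 ± 44.1 in IVO and 81.8 ± 2.16 in GV. Neither DLGAP5 and PRC1 nor PRC1 and the gene after it overlapped in any group. PRC1 did overlap the lower-placed FAM83D in IVM, where FAM83D reached 117 in library 1 and PRC1 had 106 in library 2. Within each IVM library PRC1 was the higher of the 2.

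The order of the others depended on the group. In IVM oocytes TACC3 (82.1 CPM per kilobase), FAM83D (79.3), HMMR (40.4), CKAP5 (30.7) and ASPM (29.7) followed, and each neighbouring pair of these 5 overlapped between libraries. TUBB8 (4.09) stood apart from ASPM above it and overlapped NUMA1. In IVO oocytes HMMR (45.9), TACC3 (34.6), CKAP5 (26.2), ASPM (23.8) and TUBB8 (16.1) followed with overlap at each step, and FAM83D (1.68) overlapped NUMA1 at the bottom. In GV oocytes the order was TACC3 (71.1), TUBB8 (24.9), HMMR (18.2), CKAP5 (12.6), FAM83D (7.11) and ASPM (4.20), and no neighbours overlapped. FAM83D held position 1162 of the tested genes in IVM, 8757 in IVO and 5394 in GV oocytes. The 9 genes together took 0.365% to 0.405% of the counts of IVM libraries, 0.257% and 0.304% of IVO libraries and 0.264% and 0.269% of GV libraries. DLGAP5 supplied 51.5% to 63.5% of those counts.

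**Figure D2:**
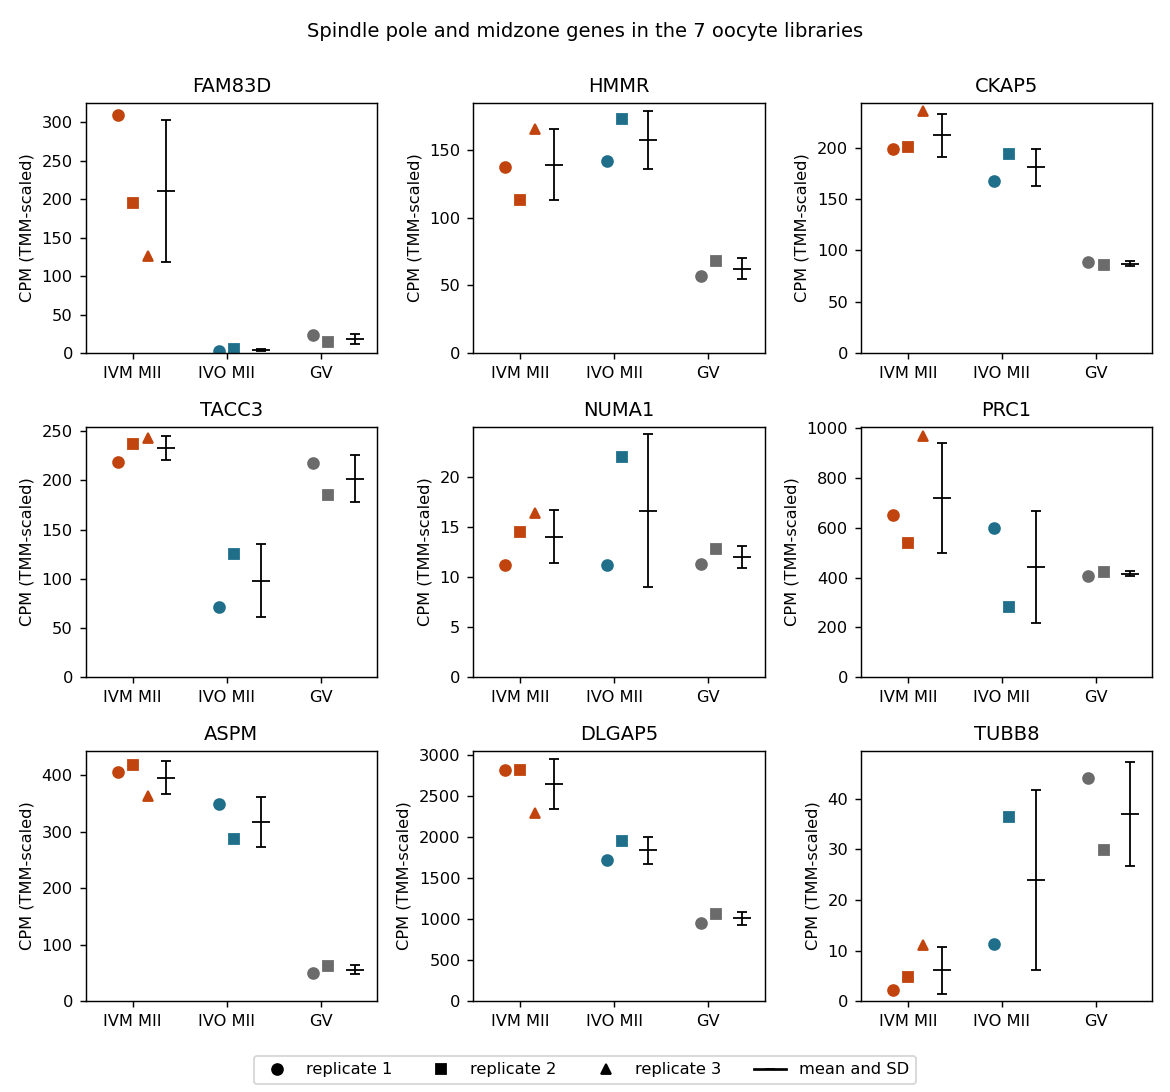
TMM-scaled CPM (y axis, from 0) of each gene in the 3 IVM, 2 IVO and 2 GV libraries (x axis); symbols give the replicate number, and bars give the mean and SD. FAM83D is at 127 to 310 CPM in IVM libraries and at no more than 23.4 CPM in the others, and ASPM is at 50.3 and 61.9 CPM in GV libraries and at no less than 287 CPM in the others.

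FAM83D, known as CHICA, is a spindle protein that brings the kinesin KIF22 to the spindle and binds casein kinase 1 alpha. Its row lay on chromosome 10 from 70544833 to 70573725, on the plus strand, with 2656 exonic bases in 4 exon blocks (coordinates here and below are those of the deposited table, whose build is not given in the sources used here). FAM83D had 310, 195 and 127 CPM in IVM libraries 1 to 3, against 3.62 and 5.28 CPM in IVO libraries 1 and 2 and 23.4 and 14.3 CPM in GV libraries 1 and 2. The raw counts behind them were 5771, 4624 and 3381 in IVM, 71 and 137 in IVO and 775 and 453 in GV. Every IVM library was above every GV library, and every GV library was above both IVO libraries.

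The difference in FAM83D between IVM and IVO oocytes was 5.56 on the log2 scale (SE 0.57, 95% interval 4.26 to 6.86, edgeR adjusted p = 0.00823). Against GV it was 3.48 higher in IVM oocytes (SE 0.51, edgeR adjusted p = 0.00207) and 2.08 lower in IVO oocytes, with a log2 ratio of -2.08 (SE 0.50, edgeR adjusted p = 0.0168). The IVM libraries spanned a 2.44-fold range for this gene. With 1 library left out, the IVM to IVO call was lost in 3 of 7 cases, where the edgeR adjusted p was 0.0513 without IVM library 1, 0.0528 without IVM library 2 and 0.0641 without IVO library 2. The log2 fold change in those cases was 5.18, 5.61 and 5.77. Without IVM library 1 or 2, 0 genes of the whole table were called between IVM and IVO oocytes. The adjusted p of FAM83D there equalled the smallest of any gene. The IVO to GV call was lost without IVO library 1 (edgeR adjusted p = 0.0861) and without GV library 1 (edgeR adjusted p = 0.104), and the IVM to GV call held in all 16 alternatives.

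Of the 20 cumulus and granulosa markers, 8 passed the filter on low counts and edgeR called 0 of them between IVM and IVO oocytes; 4 had an unadjusted p under 0.05 (2 higher and 2 lower in IVM), DESeq2 called 1 higher and 1 lower, and limma voom called 1 higher. Their median log2 fold change was -0.60. The libraries did not overlap for FSHR and TNFAIP6, which were higher in IVM, or for HAS2 and PGR, which were lower in IVM. FSHR, the follicle-stimulating hormone receptor, had 53.5, 30.3 and 21.9 CPM in IVM, 6.01 and 3.32 CPM in IVO and 2.21 and 1.04 CPM in GV libraries. TNFAIP6, a protein of the cumulus matrix, had 149, 115 and 55.6 CPM in IVM, 46.1 and 18.2 CPM in IVO and 7.20 and 13.8 CPM in GV libraries. HAS2, which makes hyaluronan, had 13.5, 9.72 and 19.5 CPM in IVM, 39.4 and 38.6 CPM in IVO and 7.95 and 4.17 CPM in GV libraries. PGR, the progesterone receptor, was low, at 0.698, 0.423 and 0 CPM in IVM, 5.15 and 2.16 CPM in IVO and 0.393 and 0.538 CPM in GV libraries. SERPINE2, the marker with the highest level, overlapped between IVM (144, 214 and 393 CPM) and IVO (118 and 181 CPM). These markers were singled out after their values had been seen, and the part of marker levels in the FAM83D difference was not tested.

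HMMR, also called RHAMM, is a spindle pole protein that works with TPX2 and helps to place FAM83D on the spindle. Its row lay on chromosome 6 from 162887036 to 162922472, on the plus strand, with 3430 exonic bases in 19 blocks. HMMR had 137, 113 and 165 CPM in IVM, 142 and 173 CPM in IVO and 56.9 and 68.0 CPM in GV libraries. Both kinds of MII oocyte lay above GV and overlapped each other. Raw counts of HMMR were 2558, 2677 and 4395 in IVM, 2791 and 4474 in IVO and 1881 and 2149 in GV libraries. The TMM factors widened its distance from GV. HMMR was 1.15 higher on the log2 scale in IVM than in GV oocytes (SE 0.32, edgeR adjusted p = 0.0225) and 1.33 higher in IVO than in GV oocytes (SE 0.34, edgeR adjusted p = 0.0208).

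Between IVM and IVO oocytes, HMMR did not pass the test, with a log2 fold change of -0.18 and a 95% interval of -0.88 to 0.51 (edgeR adjusted p = 0.771). That interval leaves room for changes of either sign. The IVM to GV call of HMMR was lost without IVM library 1 (edgeR adjusted p = 0.0584) and without GV library 1 or 2 (edgeR adjusted p = 0.218 and 0.128). The IVO to GV call was lost without IVO library 2 (edgeR adjusted p = 0.0584) and without GV library 1 or 2 (edgeR adjusted p = 0.194 and 0.119).

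FAM83D and HMMR, which act together on the spindle, therefore had different profiles over the same libraries. The ratio of FAM83D to HMMR per length was 2.91, 2.23 and 0.993 in IVM libraries, 0.0329 and 0.0395 in IVO libraries and 0.532 and 0.272 in GV libraries. It was 51.6-fold higher in IVM than in IVO oocytes with no overlap. An exact two-sided permutation test gave p = 0.2, the smallest that 3 libraries against 2 allow. The ratio of HMMR to its partner TPX2 was 0.492 to 0.521 in IVM, 0.602 to 0.670 in IVO and 0.476 to 0.506 in GV libraries. It was 0.804-fold in IVM against IVO, also with no overlap and the same permutation p = 0.2. Between IVO and GV it did not overlap either (permutation p = 0.333, the smallest possible), while IVM and GV overlapped. These ratios, and those given below, were chosen after the values had been seen.

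**Figure D3:**
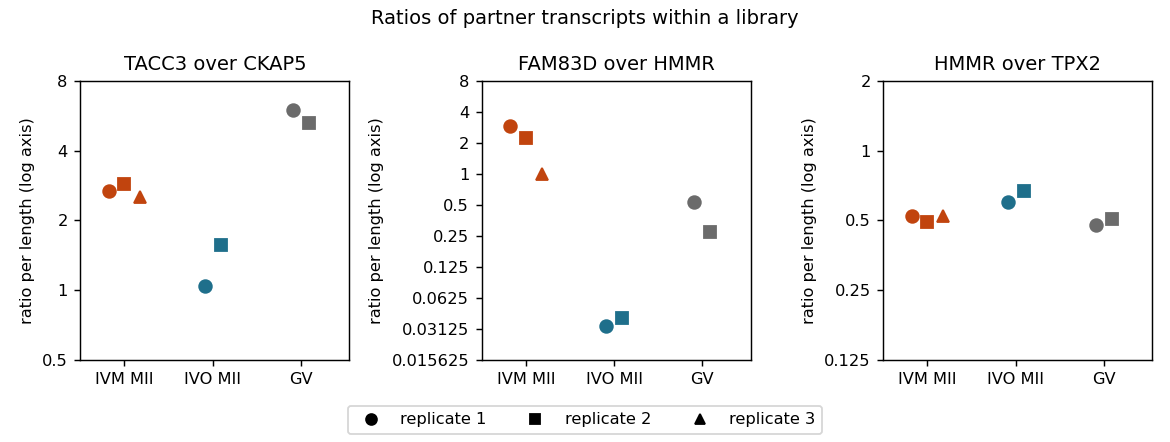
Ratio of 2 transcripts per length within each library (y axis, log scale with a different range in each panel) for IVM, IVO and GV libraries (x axis), with symbols for the replicate number. FAM83D over HMMR reaches 0.993 to 2.91 in IVM libraries and stays under 0.04 in IVO libraries, while HMMR over TPX2 lies between 0.476 and 0.670 in all 7.

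Other partners of these genes were listed whatever their values. TPX2, which activates Aurora A and releases microtubule nucleation near chromosomes, averaged 360 ± 59.0 CPM in IVM (n = 3), 329 ± 20 CPM in IVO (n = 2) and 169 ± 13.9 CPM in GV oocytes (n = 2). It was 1.09 higher on the log2 scale in IVM than in GV (edgeR adjusted p = 0.0200) and 0.96 higher in IVO than in GV (edgeR adjusted p = 0.0486), and the IVO call was lost in 10 of 16 alternatives, among them without any single library other than IVM library 3 (edgeR adjusted p 0.0642 to 0.307). The IVM call was lost without IVM library 1, GV library 1 or GV library 2 (edgeR adjusted p 0.0515 to 0.197). KIF22, the chromosome-arm kinesin that FAM83D carries to the spindle, fell to 3.47 ± 1.71 CPM in IVM and 11.6 ± 5.62 CPM in IVO oocytes, against 65.5 ± 7.78 CPM in GV oocytes.

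The log2 fold changes of KIF22 were -4.24 for IVM over GV (edgeR adjusted p = 0.00156) and -2.50 for IVO over GV (edgeR adjusted p = 0.0153). Without IVO library 1, GV library 1 or GV library 2 the IVO value did not pass (edgeR adjusted p = 0.0761, 0.0807 and 0.0566), and without IVO library 2 it was -3.12. CSNK1A1, which encodes casein kinase 1 alpha, was 1.47 higher on the log2 scale in IVM than in GV oocytes (edgeR adjusted p = 0.0298). That call was lost without IVM library 1 or 2 and without GV library 1 or 2 (edgeR adjusted p 0.0811 to 0.186). Between IVO and GV its log2 fold change was 0.35 (edgeR adjusted p = 0.590).

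DYNLL1, a dynein light chain that also binds FAM83D, fell to 53.7 ± 33.4 CPM in IVM and 11.2 ± 9.56 CPM in IVO oocytes, against 227 ± 26.5 CPM in GV oocytes. Its log2 fold changes were -2.08 for IVM over GV (edgeR adjusted p = 0.0335) and -4.34 for IVO over GV (edgeR adjusted p = 0.00604). The IVO value was -5.67 without IVO library 1 and -3.66 without IVO library 2. The IVM call was lost without IVM library 1, IVM library 3, GV library 1 or GV library 2 (edgeR adjusted p 0.0648 to 0.120), and the value was -2.67 without IVM library 2. Between IVM and IVO oocytes none of TPX2, KIF22, CSNK1A1 and DYNLL1 passed the test, and their log2 fold changes were 0.13, -1.74, 1.11 and 2.26 (edgeR adjusted p 0.110 to 0.834). Without IVM library 3, KIF22 passed at -2.20 (edgeR adjusted p = 0.0442) and CSNK1A1 at 1.40 (edgeR adjusted p = 0.0435), and DESeq2 called KIF22 (adjusted p = 0.0150) and DYNLL1 (adjusted p = 0.0188) with all libraries.

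CKAP5, the vertebrate ch-TOG, is a microtubule polymerase, and TACC3 is the Aurora A substrate that recruits it to spindle fibres together with clathrin. In human oocytes TACC3, CKAP5, CCP110 and DISC1 have been described as parts of a structure that nucleates the spindle. The CKAP5 row lay on chromosome 14 from 20721109 to 20823540, on the plus strand, with 6912 exonic bases in 46 blocks. CKAP5 had 199, 201 and 236 CPM in IVM, 168 and 194 CPM in IVO and 88.7 and 85.7 CPM in GV libraries. All MII libraries were above both GV libraries, and on the TMM scale the lowest IVM library was just above the highest IVO library. Raw counts of CKAP5 were 3709, 4762 and 6274 in IVM, 3305 and 5026 in IVO and 2931 and 2709 in GV libraries. The TMM factors widened its distance from GV. CKAP5 was 1.28 higher on the log2 scale in IVM than in GV oocytes (SE 0.29, edgeR adjusted p = 0.00951) and 1.06 higher in IVO than in GV oocytes (SE 0.30, edgeR adjusted p = 0.0320).

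The IVO to GV call of CKAP5 was lost with no filter on low counts (edgeR adjusted p = 0.0602) and without any single library other than IVM library 3 (edgeR adjusted p 0.0511 to 0.224). The IVM to GV call was lost without GV library 1 or 2 (edgeR adjusted p = 0.110 and 0.112). Between IVM and IVO oocytes CKAP5 did not pass, at 0.23 on the log2 scale with a 95% interval of -0.40 to 0.85 (edgeR adjusted p = 0.672).

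The TACC3 row lay on chromosome 5 from 1733792 to 1761557, on the plus strand, with 2840 exonic bases in 16 blocks. TACC3 had 219, 237 and 243 CPM in IVM, 71.8 and 125 CPM in IVO and 218 and 185 CPM in GV libraries. IVO oocytes had the lowest values of the 3 groups, with no overlap with either of the others. The IVM values on the TMM scale began where the GV values ended. Raw counts of TACC3 were 4087, 5608 and 6460 in IVM, 1408 and 3232 in IVO and 7223 and 5856 in GV libraries. Both GV libraries had lower totals than any IVM library, so the IVM to GV direction of TACC3 rests on the TMM factors. For IVM over IVO it was at 1.25 on the log2 scale (SE 0.33, 95% interval 0.49 to 2, unadjusted p = 0.00482, edgeR adjusted p = 0.0902), which is past the unadjusted threshold but not the adjusted one. DESeq2 called it (adjusted p = 0.00986), alone among the 16 alternatives.

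For IVO over GV the value of TACC3 was -1.04 on the log2 scale (SE 0.35, edgeR adjusted p = 0.0568). It passed in 7 of 16 alternatives, among them DESeq2 (adjusted p = 0.0118), limma voom (adjusted p = 0.0331) and the fits without IVM library 3 (edgeR adjusted p = 0.0465) or IVO library 2 (edgeR adjusted p = 0.0244). For IVM over GV it was 0.21 (95% interval -0.52 to 0.94, edgeR adjusted p = 0.640). The ratio of TACC3 to CKAP5 per length was 2.68, 2.87 and 2.51 in IVM, 1.04 and 1.57 in IVO and 6.00 and 5.26 in GV libraries. The groups did not overlap in this ratio, and exact two-sided permutation tests gave p = 0.2 for IVM against either group and p = 0.333 for IVO against GV, the smallest these group sizes allow.

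Of the proteins that work with TACC3 and CKAP5, the kinase AURKA was abundant in all groups and was called by edgeR in no comparison. It averaged 3797 ± 855 CPM in IVM (n = 3), 4692 ± 485 CPM in IVO (n = 2) and 2579 ± 307 CPM in GV oocytes (n = 2), and the lowest edgeR adjusted p was 0.0851, for IVO over GV, which passed with limma voom (adjusted p = 0.0360). CLTC, the clathrin heavy chain, averaged 174 ± 56.0 CPM in IVM, 148 ± 30.9 CPM in IVO and 87.9 ± 13.2 CPM in GV oocytes, and its lowest edgeR adjusted p was 0.0671, for IVM over GV, where it passed without IVM library 3 (edgeR adjusted p = 0.0183).

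CCP110, a centriole-capping protein, and DISC1, a scaffold of the centrosome, moved in opposite directions against GV. CCP110 averaged 114 ± 12.1 CPM in IVM and 164 ± 24.4 CPM in IVO oocytes, against 36.5 ± 0.229 CPM in GV oocytes. It was 1.64 higher in IVM (edgeR adjusted p = 0.00442) and 2.17 higher in IVO (edgeR adjusted p = 0.00316) on the log2 scale, and the IVM call was lost without GV library 1 or 2 (edgeR adjusted p = 0.0664 and 0.0621). DISC1 fell to 19.1 ± 3.67 CPM in IVM and 14.8 ± 1.31 CPM in IVO oocytes, against 58.4 ± 14.0 CPM in GV oocytes. Its log2 fold changes were -1.61 for IVM over GV (edgeR adjusted p = 0.00929) and -1.97 for IVO over GV (edgeR adjusted p = 0.00905), and both calls were lost without GV library 2 (edgeR adjusted p = 0.121 for IVM and 0.0930 for IVO). Neither gene was called between IVM and IVO oocytes (edgeR adjusted p = 0.329 for CCP110 and 0.604 for DISC1).

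NUMA1 tethers microtubule minus ends at the pole and is carried there by dynein. The NUMA1 row lay on chromosome 14 from 67132321 to 67214094, on the minus strand, with 10107 exonic bases in 32 blocks, and it shared 42 bases with LOC102137649 on the other strand, a row with no more than 43 counts in any library. NUMA1 had 11.2, 14.5 and 16.4 CPM in IVM, 11.2 and 21.9 CPM in IVO and 11.3 and 12.8 CPM in GV libraries. The 3 groups overlapped one another, and NUMA1 passed no test (edgeR adjusted p = 0.796, 0.506 and 0.721 for IVM over IVO, IVO over GV and IVM over GV). The 95% interval for IVM over IVO was -1.25 to 0.76 on the log2 scale, and the sign of the value turned without IVO library 2 (0.24, against -0.24 with all libraries). Over GV, IVO oocytes had a value of 0.47 with all libraries and -0.11 without IVO library 2.

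GPSM2, the cortical LGN protein that binds NUMA1, averaged 27.8 ± 15.9 CPM in IVM, 23.3 ± 1.02 CPM in IVO and 14.3 ± 2 CPM in GV oocytes and was called in no comparison (edgeR adjusted p 0.209 to 0.831). Without IVM library 3, where GPSM2 had 10.3 CPM against 41.4 and 31.8 CPM in IVM libraries 1 and 2, it was 1.32 higher on the log2 scale in IVM than in GV oocytes (edgeR adjusted p = 0.0220). KIFC1, a minus-end kinesin that gathers poles, was low, at 3.74 ± 2.03 CPM in IVM, 1.68 ± 0.789 CPM in IVO and 2.23 ± 1.00 CPM in GV oocytes, and passed no test (edgeR adjusted p 0.453 to 0.761). DYNC1H1, the heavy chain of cytoplasmic dynein, was not analysed here.

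ASPM focuses spindle poles and binds microtubule minus ends. The ASPM row lay on chromosome 1 from 55345497 to 55410421, on the minus strand, with 13350 exonic bases in 28 blocks. ASPM had 406, 418 and 363 CPM in IVM, 349 and 287 CPM in IVO and 50.3 and 61.9 CPM in GV libraries. Every MII library held at least 287 CPM and no GV library more than 61.9 CPM. ASPM was 7.06-fold higher in IVM than in GV oocytes (2.82 on the log2 scale, SE 0.31, edgeR adjusted p = 0.00135) and 5.66-fold higher in IVO than in GV oocytes (log2 fold change 2.50, SE 0.32, edgeR adjusted p = 0.00211). Both calls held in all 16 alternatives, with log2 fold changes of 2.66 to 2.96 for IVM and 2.34 to 2.64 for IVO.

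Between IVM and IVO oocytes the libraries of ASPM did not overlap, IVM being higher, but the log2 fold change of 0.32 did not pass (95% interval -0.32 to 0.95, edgeR adjusted p = 0.547). ASPM held position 2403 of the tested genes in IVM, 2507 in IVO and 6837 in GV oocytes by CPM per kilobase.

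DLGAP5, also called HURP, bundles and stabilises the kinetochore fibres of the spindle. Its row lay on chromosome 7 from 119382885 to 119425226, on the minus strand, with 3072 exonic bases in 20 blocks. DLGAP5 had 2828, 2828 and 2303 CPM in IVM, 1724 and 1961 CPM in IVO and 958 and 1064 CPM in GV libraries. On the TMM scale the groups formed 3 separate ranges, highest in IVM and lowest in GV. Its raw counts were 33832 and 50851 in IVO and 31676 and 33639 in GV libraries. The TMM factors were 0.8336 and 0.9848 for the IVO and 1.423 and 1.382 for the GV libraries. DLGAP5 was 1.39 higher on the log2 scale in IVM than in GV oocytes (SE 0.29, 95% interval 0.74 to 2.05, edgeR adjusted p = 0.00702).

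Without GV library 1 or 2 that call was lost (edgeR adjusted p = 0.0890 and 0.0598). For IVO over GV the value of DLGAP5 was 0.87 on the log2 scale (SE 0.30, edgeR adjusted p = 0.0626), and it passed with limma voom (adjusted p = 0.0273) and without IVM library 3 (edgeR adjusted p = 0.0434). For IVM over IVO it was 0.53 (95% interval -0.11 to 1.16, edgeR adjusted p = 0.314). At this number of libraries the separation of IVM from IVO in DLGAP5 did not reach a call.

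PRC1 crosslinks antiparallel microtubules and builds the midzone from which cytokinesis, and in oocytes polar body extrusion, proceeds. Its row lay on chromosome 7 from 71421338 to 71450725, on the minus strand, with 5083 exonic bases in 14 blocks. PRC1 had 652, 538 and 968 CPM in IVM, 601 and 284 CPM in IVO and 408 and 424 CPM in GV libraries. On the TMM scale the 2 IVO libraries lay on either side of the GV values, and all 3 IVM libraries lay above GV. Raw counts of PRC1 were 12151, 12742 and 25730 in IVM, 11799 and 7369 in IVO and 13496 and 13400 in GV libraries. In raw counts IVM libraries 1 and 2 were thus below both GV libraries. No comparison passed, with log2 fold changes of 0.70 for IVM over IVO (edgeR adjusted p = 0.351), 0.09 for IVO over GV (edgeR adjusted p = 0.896) and 0.79 for IVM over GV (edgeR adjusted p = 0.156).

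The 95% intervals of PRC1 ran from -0.22 to 1.62, from -0.90 to 1.08 and from -0.13 to 1.71 in the same order. The sign of IVO over GV turned without IVO library 1, to -0.56. The ratio of PRC1 to KIF4A per length was 5.12, 4.35 and 13.5 in IVM, 6.56 and 6.18 in IVO and 14.0 and 13.6 in GV libraries. IVM library 3 thus had a ratio near that of GV, and the other MII libraries were below it.

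KIF4A, the kinesin that PRC1 recruits to limit midzone length, averaged 94.5 ± 27.4 CPM in IVM, 60.4 ± 28.4 CPM in IVO and 26.5 ± 1.25 CPM in GV oocytes. It was 1.83 higher on the log2 scale in IVM than in GV (edgeR adjusted p = 0.0127), a call lost without GV library 1 or 2 (edgeR adjusted p = 0.108 and 0.0877). For IVO over GV it was 1.19 (edgeR adjusted p = 0.0803) and passed without IVM library 3 or IVO library 2 (edgeR adjusted p = 0.0494 and 0.0371). KIF23, the kinesin of the centralspindlin complex, averaged 364 ± 54.3 CPM in IVM, 456 ± 29.6 CPM in IVO and 189 ± 7.50 CPM in GV oocytes.

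KIF23 was 0.94 higher on the log2 scale in IVM than in GV (edgeR adjusted p = 0.0323) and 1.27 higher in IVO than in GV (edgeR adjusted p = 0.0174). Both calls were lost without GV library 1 or 2 (edgeR adjusted p 0.135 to 0.229), and that of IVM also with RLE scaling, with no filter and without IVM library 1 or 2 (edgeR adjusted p 0.0573 to 0.0934). RACGAP1, the other centralspindlin subunit, averaged 296 ± 253 CPM in IVM, 414 ± 144 CPM in IVO and 279 ± 60.7 CPM in GV oocytes and passed no test (edgeR adjusted p 0.559 to 0.928). The IVM libraries of RACGAP1 differed among themselves, at 179, 122 and 586 CPM.

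PLK1, the polo-like kinase that docks on PRC1, had 6.60, 9.51 and 33.4 CPM in IVM, 16.8 and 86.0 CPM in IVO and 188 and 116 CPM in GV libraries. All MII libraries were below both GV libraries. PLK1 was lower in IVM than in GV oocytes, with a log2 fold change of -3.20 (edgeR adjusted p = 0.0167), and the value was -1.56 for IVO over GV (edgeR adjusted p = 0.220). The IVM call was lost without IVM library 1 or 2 and without GV library 1 (edgeR adjusted p = 0.0510, 0.0587 and 0.0731), and the value was -4.27 without IVM library 3. Between IVM and IVO oocytes none of KIF4A, KIF23, RACGAP1 and PLK1 was called (edgeR adjusted p 0.272 to 0.688).

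TUBB8 is the beta-tubulin that dominates primate oocytes, and in people its mutations stop oocyte maturation. The TUBB8 row lay on chromosome 9 from 706575 to 708894, on the plus strand, with 1488 exonic bases in 4 blocks. Beta-tubulin genes are close copies of one another, and the authors' treatment of reads with several matches is not given in the sources used here, so the counts of single beta-tubulin rows are uncertain. TUBB8 had 2.20, 4.86 and 11.2 CPM in IVM, 11.3 and 36.5 CPM in IVO and 44.2 and 29.9 CPM in GV libraries. The raw counts were 41, 115 and 298 in IVM, 222 and 946 in IVO and 1462 and 944 in GV.

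All IVM libraries of TUBB8 were below all others, the highest of them by a narrow margin, and IVO library 2 lay within the range of GV. Its spread was the widest of the 9 genes over the IVM libraries (5.09-fold) and over the IVO libraries (3.22-fold). TUBB8 fell in IVM relative to GV oocytes, at -2.60 on the log2 scale (SE 0.71, 95% interval -4.22 to -0.98, edgeR adjusted p = 0.0220). That call was lost without IVM library 1 or 2 and without GV library 1 (edgeR adjusted p = 0.0525, 0.0705 and 0.110), and without IVM library 3 the value was -3.41.

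For IVM over IVO TUBB8 was at -1.97 on the log2 scale (SE 0.71, 95% interval -3.57 to -0.36, unadjusted p = 0.0216, edgeR adjusted p = 0.165). It passed with DESeq2 (adjusted p = 0.0434), and no library left out made it pass. Between IVO and GV oocytes it was -0.63 (95% interval -2.40 to 1.14, edgeR adjusted p = 0.573).

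Of the beta-tubulins listed whatever their values, all but TUBB8 stayed under 5 CPM. TUBB4B averaged 0.367 ± 0.206 CPM in IVM, 1.04 ± 0.265 CPM in IVO and 4 ± 0.333 CPM in GV oocytes, and was lower in IVM than in GV (log2 fold change -3.43, edgeR adjusted p = 0.0147). That call was lost without GV library 1 or 2 (edgeR adjusted p = 0.136 and 0.104). TUBB and TUBB6 did not exceed 3.92 CPM in any library and passed no test (edgeR adjusted p 0.227 to 0.884), and TUBB2A, TUBB2B and TUBB4A did not pass the filter, at no more than 0.510 CPM in any library.

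TUBB1, a beta-tubulin known from platelets, was singled out after its values had been seen. It averaged 13.3 ± 5.03 CPM in IVM, 14.7 ± 9.87 CPM in IVO and 2.07 ± 1.09 CPM in GV oocytes. TUBB1 was 2.68 higher on the log2 scale in IVM than in GV (edgeR adjusted p = 0.0182) and 2.83 higher in IVO than in GV (edgeR adjusted p = 0.0221). Per length, TUBB8 made up 32.1%, 49.9% and 84.4% of all beta-tubulin rows in IVM libraries, 55.7% and 92.5% in IVO libraries and 90.3% and 86.4% in GV libraries. TUBB1 made up 52.7%, 32.0% and 12% in IVM, 22.3% and 4.10% in IVO and 0.554% and 1.72% in GV libraries. In IVM library 1 the TUBB1 share was above that of TUBB8, and in each of the other 6 libraries it was below.

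**Figure D4:**
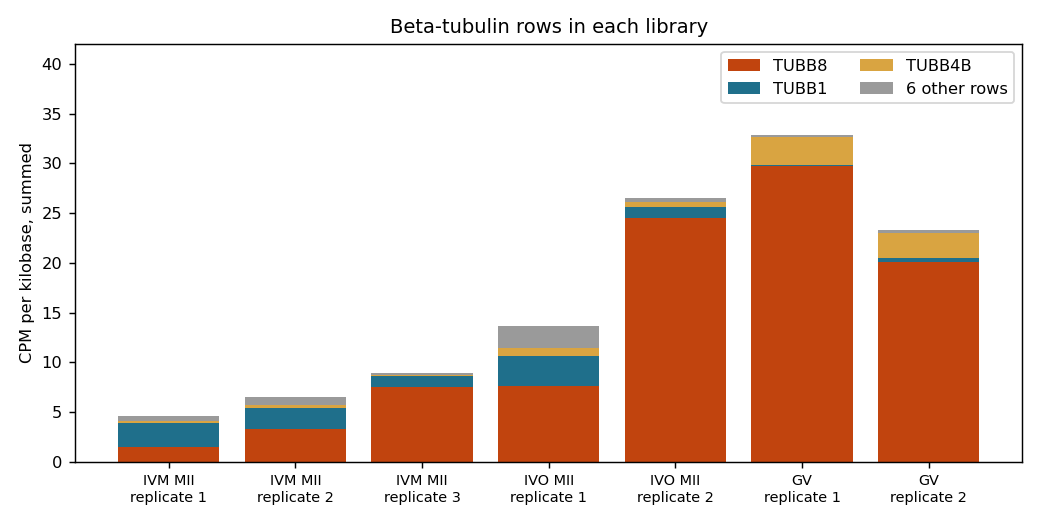
Summed CPM per kilobase of all 9 beta-tubulin rows (y axis, from 0) in each library (x axis), split into TUBB8, TUBB1, TUBB4B and the 6 other rows. TUBB8 gives 1.48 to 7.53 in IVM, 7.60 and 24.5 in IVO and 29.7 and 20.1 in GV libraries.

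Around the 9 genes, 4 lists of other spindle genes were counted in each comparison. The lists were chosen with earlier results of these data known. For IVM over IVO the counts stand beside 1.47% of all tested genes called, so a list of this size with 0 calls lies near that background. Between IVM and IVO oocytes, 0 of 39 genes of the spindle pole and of microtubule nucleation were called by edgeR, with a median log2 fold change of 0.08; 6 had an unadjusted p under 0.05, DESeq2 called 3 and limma voom 1, all higher in IVM. Of 45 other spindle microtubule-associated and pole-focusing genes, 2 were called higher and 0 lower in IVM (median 0.03), namely STMN1 and SKA2, while 9 higher and 2 lower had an unadjusted p under 0.05, DESeq2 called 6 higher and 1 lower, and limma voom called 2 higher. Of 20 midzone and cytokinesis genes edgeR called 0 (median -0.16), 4 had an unadjusted p under 0.05 (3 higher and 1 lower in IVM), DESeq2 called 1 higher and limma voom 0. Of 16 tubulin genes edgeR called 0 (median -0.83), 6 had an unadjusted p under 0.05 (2 higher and 4 lower in IVM), DESeq2 called 2 lower and limma voom 0.

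STMN1, the tubulin-sequestering protein stathmin, had 141, 136 and 67.0 CPM in IVM, 17.6 and 7.90 CPM in IVO and 125 and 150 CPM in GV libraries. IVM and GV libraries overlapped and both were above IVO, with log2 fold changes of 3.17 for IVM over IVO (edgeR adjusted p = 0.0303) and -3.43 for IVO over GV (edgeR adjusted p = 0.00351). SKA2, a subunit of the complex that couples kinetochores to microtubules, had 325, 321 and 179 CPM in IVM, 47.3 and 29.6 CPM in IVO and 101 and 136 CPM in GV libraries. It was 2.84 higher on the log2 scale in IVM than in IVO oocytes (edgeR adjusted p = 0.0271).

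Both IVM to IVO calls were lost when only these groups were fitted (edgeR adjusted p = 0.0692 for STMN1 and 0.0538 for SKA2) and without IVM library 1, IVM library 2 or IVO library 2 (edgeR adjusted p 0.102 to 0.115 for STMN1 and 0.0914 to 0.115 for SKA2). That of STMN1 was also lost without GV library 2 (edgeR adjusted p = 0.0532). Without IVO library 1 the STMN1 values were 3.86 for IVM over IVO and -4.13 for IVO over GV.

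Against GV the lists moved in both directions, beside 36.3% of all tested genes called for IVM (18.5% higher and 17.8% lower) and 28.1% for IVO (14.6% higher and 13.5% lower). Of the 39 pole and nucleation genes, 10 were higher and 8 lower in IVM (46.2% called, median -0.38), and 7 were higher and 6 lower in IVO (33.3%, median -0.43). Of the 45 associated and pole-focusing genes, 16 were higher and 7 lower in IVM (51.1% called, median 0.35), and 9 were higher and 9 lower in IVO (40%, median 0.27). Of the 20 midzone and cytokinesis genes, 9 were higher and 4 lower in IVM (65% called, median 0.53), and 5 were higher and 3 lower in IVO (40%, median 0.56). Of the 16 tubulin genes, 2 were higher and 8 lower in IVM (62.5% called, median -1.50), and 1 was higher and 2 lower in IVO (18.8%, median -0.64).

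The genes with the largest called changes over these lists, at 20 CPM or more in the higher group, included motors, cytokinesis factors and dynein regulators. KIF2A, a kinesin that takes microtubules apart, was 2.99 higher on the log2 scale in IVM than in GV (edgeR adjusted p = 0.00250) and 3.05 higher in IVO than in GV (edgeR adjusted p = 0.00360). ECT2, the exchange factor that starts cleavage furrow formation, had 1071, 843 and 675 CPM in IVM against 99.8 and 123 CPM in GV libraries, a log2 fold change of 2.96 (edgeR adjusted p = 0.00150). The IVO libraries of ECT2 had 542 and 387 CPM, also above GV. KIF20B (a kinesin of cytokinesis), ANLN (the furrow protein anillin) and MAPRE1 (the plus-end protein EB1) were higher by 2.32 to 2.39 in IVM and by 2.35 to 2.45 in IVO. CKAP2, a spindle-associated protein, was 2.76 higher in IVM, and GNAI1, a G protein subunit that anchors GPSM2, was 2.58 higher in IVO. Means of the other kind of MII oocyte also lay above GV. CKAP2 averaged 366 ± 267 CPM in IVO against 134 ± 31.3 CPM in GV oocytes. GNAI1 averaged 312 ± 28.2 CPM in IVM against 68 ± 6.3 CPM in GV oocytes.

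Among the lower ones, BIRC5 (survivin, of the chromosomal passenger complex) fell to 17.9 ± 4.31 CPM in IVM and 31.7 ± 32.0 CPM in IVO oocytes, against 353 ± 63.1 CPM in GV oocytes. Its log2 fold changes were -4.30 in IVM (edgeR adjusted p = 0.00235) and -3.48 in IVO (edgeR adjusted p = 0.0105). HAUS8, an augmin subunit, fell to 1.29 ± 0.460 CPM in IVO, against 54.8 ± 3.65 CPM in GV oocytes (log2 fold change -5.39, edgeR adjusted p = 0.00320). In IVM oocytes HAUS8 was also below GV, at 7.36 ± 5.78 CPM. The dynein cofactor NUDC and the dynactin subunit DCTN2 were lower in both kinds of MII oocyte, by log2 fold changes of -3.75 and -3.48 in IVM and -3.91 and -3.78 in IVO. DCTN1, another dynactin subunit, was also lower in both, at -3.67 in IVM and -3.05 in IVO (edgeR adjusted p = 0.00441 and 0.0204). The alpha-tubulin TUBA3E was lower in IVM (-3.56, edgeR adjusted p = 0.00433), and its value in IVO was -1.86 (edgeR adjusted p = 0.0821).

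With 1 library left out, MAPRE1 lost both calls without GV library 1 (edgeR adjusted p = 0.0563 for IVM and 0.0621 for IVO), and CKAP2 lost its IVM call there (edgeR adjusted p = 0.0507). Without IVO library 1 the IVO values became 2.45 for KIF2A, 1.76 for ANLN, -3.18 for DCTN2 and -2.71 for BIRC5, and without IVO library 2 they became -4.91 for DCTN2 and -5.30 for BIRC5. Without IVM library 3 the IVM value of DCTN1 became -4.27. All of these kept their direction.

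**Figure D5:**
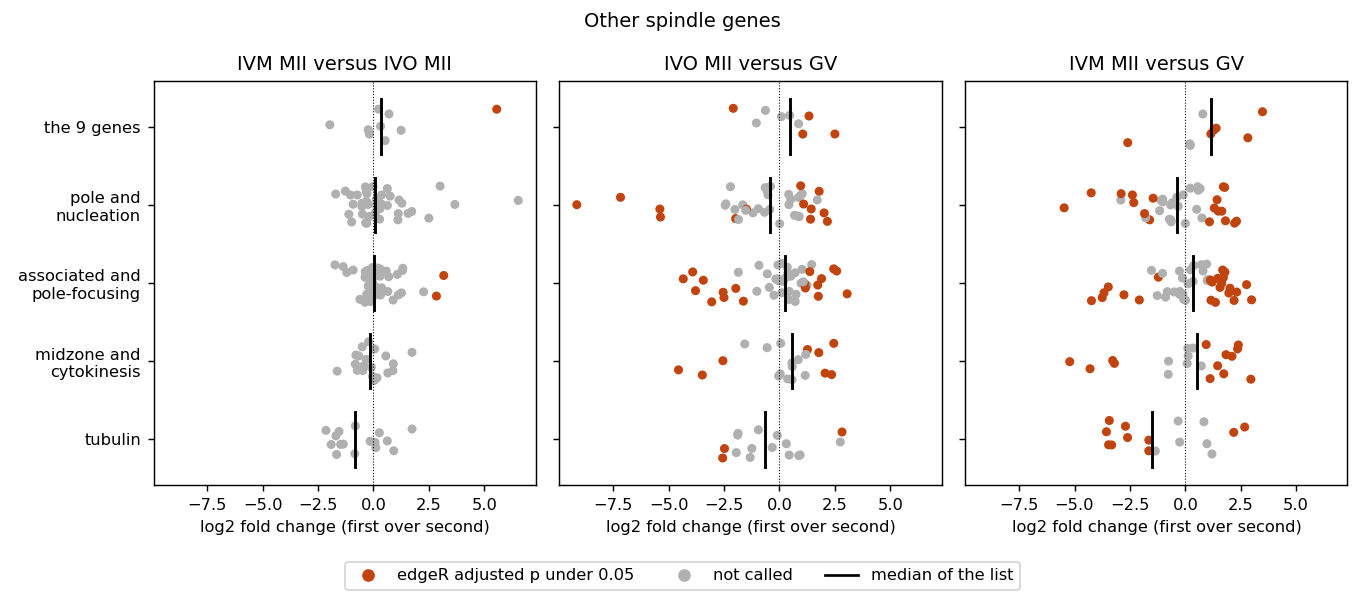
Log2 fold change (x axis, first group over second) of the 9 genes and of the 4 lists of other spindle genes (y axis) in the 3 comparisons; orange points had an edgeR adjusted p under 0.05, and vertical bars give each list's median. The tubulin list has the lowest median in each comparison, at -0.83 for IVM over IVO, -0.64 for IVO over GV and -1.50 for IVM over GV.

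Across the 7 libraries, the genes most like each of the 9 in log2(CPM + 1) were looked up among genes with a symbol and at least 20 CPM on average. These Pearson correlations describe 7 libraries that fall into 3 groups, and the points of a gene share the library and its depth. FAM83D was most like TRIM6 (r = 0.991), ZNF711 (r = 0.988) and PIWIL1 (r = 0.985). ZNF711 averaged 45.9 CPM in IVM, 0.0255 CPM in IVO and 1.52 CPM in GV oocytes. HMMR was most like CCNB1 (r = 0.996), the cyclin of the meiotic kinase CDK1, followed by CENPN and SYT14. CCNB1 averaged 969 CPM in IVM, 1120 CPM in IVO and 353 CPM in GV oocytes.

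ASPM was most like U2SURP (r = 0.999), SMC6 and CLOCK, and DLGAP5 was most like CLIP1 (r = 0.997) and EPB41L2. CKAP5 was most like MTUS1 (r = 0.994), MRPL44 and PPIL4, and TACC3 was most like VAPB (r = 0.996), YIPF4 and SARAF. SARAF averaged 31.4 CPM in IVM, 3.71 CPM in IVO and 29.8 CPM in GV oocytes, lowest in IVO as TACC3 was. TUBB8 was most like IL27RA (r = 0.995) and MCM3. For NUMA1 and PRC1 the likest genes had lower correlations, with C1H1orf43 (r = 0.946), SRRM2 and GPATCH8 for NUMA1 and OSTF1 (r = 0.962) and FHOD3 for PRC1.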

How the data were processed

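The authors deposited 1 table of raw counts per gene for 7 libraries, not normalized. The submitters' processing notes name Trim Galore 0.6.7, DESeq2, featureCounts 2.0.1, SAMtools 1.15.1 and Bowtie2 2.4.5. Genome build, strand setting and handling of reads with several matches were not given in the sources used here. Since Bowtie2 aligns without splitting at introns, junction reads may be missing from the counts. The table gave 28161 usable rows, and 10 broken lines were left out.

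Counts were fitted once over all libraries with edgeR 4.0.16 in R 4.3.3 (TMM scaling, filterByExpr, glmQLFit, glmQLFTest, two-sided), and p-values were adjusted by Benjamini-Hochberg over 16374 genes. SE of a log2 fold change is its absolute value divided by the square root of the F statistic of the edgeR test. Intervals are 95% intervals of the fitted log2 fold change, made from that SE and a t quantile. CPM use TMM-scaled totals, and levels between genes use CPM per kilobase of exonic length. DESeq2 1.42.0, limma 3.58.1 and other settings were alternatives. Scripts were tested on simulated data. Python 3.11.15, pandas 2.3.3, SciPy 1.17.1 and NumPy 2.4.6 were used.

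The 9 genes and all lists were chosen with earlier results of these data known. Named in the text are all 9 genes, fixed partners and beta-tubulins whatever their values, and, per comparison, the 6 highest and 6 lowest called genes of 4 lists with at least 20 CPM in the higher group. Likeness took the 3 highest Pearson correlations over 7 libraries. Some of these genes are not reported here.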

Additional observations from a re-analysis of the deposited data

How the results depend on the processing

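All 9 genes kept their direction under every alternative except NUMA1 and PRC1. Every alternative used scaling factors computed from the genes, and none used library totals alone. How far the directions against GV depend on such factors was therefore not tested. Of 432 values of the 9 genes under 16 alternatives, 390 kept direction and side of the threshold, 26 lost a call, 12 gained one and 4 turned sign. Depth did not fall under 22901970 counts a library, and no alternative reduced it. Leaving out 1 library leaves a group with 1 library wherever it held 2, which is then assumed to vary like the other groups.

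In IVM versus IVO oocytes 241 genes were called. The number was 731 with no filter, 2043 with DESeq2, 497 with limma voom, 772 with the newer edgeR fit, 1238 with the replicate block and 54 with only the groups compared, and 0 to 1277 without 1 library. It was 0 without IVM library 1 or 2 (by edgeR, 2703 and 2549 genes had an unadjusted p under 0.05), 1277 without IVM library 3, 364 and 22 without IVO library 1 and 2, and 96 and 64 without GV library 1 and 2. Of the 9 genes 1 was called, 3 with DESeq2, 2 with the replicate block and 0 to 1 without 1 library. In IVO versus GV oocytes 4596 genes and 4 of the 9 were called, and without 1 library 1484 to 5517 genes and 1 to 6 of the 9. In IVM versus GV oocytes 5949 genes and 6 of the 9 were called, and without 1 library 2110 to 6716 genes and 2 to 6 of the 9. In both comparisons with GV the lowest numbers came without GV library 1.

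Whether the replicate numbers pair the samples could not be decided. Deviations of same-numbered libraries from their group means correlated at 0.353 and -0.177 for IVM and IVO, -0.171 and 0.110 for IVM and GV and -0.234 for IVO and GV. In a group of 2 libraries the deviations mirror each other, so these values are not free of one another and cannot settle the pairing. With the replicate block 4926 genes and 4 of the 9 were called in IVO versus GV oocytes and 5818 genes and 5 of the 9 in IVM versus GV oocytes. The block added TUBB8 in IVM versus IVO oocytes (edgeR adjusted p = 0.0352) and left out HMMR in IVM versus GV oocytes (edgeR adjusted p = 0.0507). Among the partners it called KIF22 and DYNLL1 in IVM versus IVO oocytes (edgeR adjusted p = 0.0484 and 0.0459) and CLTC and GPSM2 in IVM versus GV oocytes (0.0275 and 0.0393). It did not call TPX2 in either comparison with GV (0.0514 for IVM and 0.0576 for IVO), nor DYNLL1 and TUBB4B in IVM versus GV oocytes (0.0585 and 0.0703). With the numbers of IVO and GV crossed, an alternative chosen after seeing the data, 5623 genes and 6 of the 9 were called in IVO versus GV oocytes.

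Of the values that turned sign none passed the test. For IVM over IVO the log2 fold changes without 1 library ran from -0.64 to 0.24 for NUMA1, -0.049 to 0.47 for CLTC, -0.018 to 0.23 for TPX2 (-0.00089 with the replicate block), -0.14 to 0.63 for GPSM2 (-0.0012 with limma voom) and -3.26 to 1.02 for TUBB. For IVO over GV they ran from -0.11 to 0.86 for NUMA1, -0.56 to 0.52 for PRC1 (-0.019 with limma voom), -1.0 to 0.13 for KIFC1, -0.024 to 0.64 for CSNK1A1, -0.20 to 3.64 for TUBB and -0.36 to 0.99 for TUBB6. For IVM over GV they ran from -0.51 to 1.30 for TUBB and -0.92 to 0.46 for RACGAP1, which was -0.011 with upper quartile scaling, -0.075 with RLE scaling, -0.030 with the stricter filter, -0.077 with DESeq2, -0.22 with limma voom and -0.85 with the replicate block. The cause was not tested.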
